A study of Mus musculus with 6 samples.

Results

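Ogt, Hcfc1, Tbl1x and Zfx are 4 X-linked genes of transcription control, chosen by name, and all 4 were found among the 372 genes that both deposited tables list. The RNA came from the female mouse stem cell line 16.7 TST, of embryonic origin and labelled WT, and was sequenced before differentiation (day 0) and after 4 and 7 days of it, as 2 libraries per time and 6 in all. The name of the line is not explained in the labels, which give no passage and no further allele or agent. Day 0 cells were kept with LIF on irradiated mouse embryonic fibroblasts, whereas differentiating cells were taken off these feeders, lost LIF, grew as embryoid bodies and were put on gelatin at day 4. The first table counts reads that could be assigned to an allele of a gene, cas or mus, and its column headers name cas as the active X and mus as the inactive X. The mus share used here is the percent of a gene's allele-specific reads that came from mus. The second table gives TPM, transcript abundance per length, scaled to a common total per library. Means are given ± SD over the 2 libraries of a day (n = 2). No label says that replicates were separate cultures, so the p-values cover only the spread between these libraries, which may be technical.

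The enzyme encoded by Ogt attaches the sugar O-GlcNAc to serines and threonines of nuclear and cytosolic proteins, many of them transcription regulators. Hcfc1 encodes host cell factor, a chromatin-bound adaptor between transcription factors and histone-modifying enzymes, which OGT both glycosylates and cleaves into its mature subunits. Tbl1x encodes a WD40 protein of the NCoR and SMRT corepressor complexes, which carry the deacetylase HDAC3. Zfx encodes a zinc finger transcription factor needed for self-renewal of mouse embryonic stem cells. In female mammals most genes of one X chromosome are silenced during differentiation, and a minority, the escape genes, stays transcribed from it. The human ZFX gene is a known escape gene, whereas mouse Zfx is known to be silenced.

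On GRCm38, with GENCODE M21 annotation, Ogt lay on the plus strand of chromosome X from 101640060 to 101684351, 1.84 Mb from the start of Xist. The other genes were farther from Xist. Zfx lay on the minus strand from 94074631 to 94123702, 9.36 Mb away, Tbl1x on the plus strand from 77511013 to 77662983, 26.0 Mb away, and Hcfc1 on the minus strand from 73942792 to 73966357, 29.5 Mb away. All 4 are protein-coding. Exons of Zfx overlap an antisense gene, Gm14798, and since the strand setting of the counting is not given in the sources used here, reads of the pair cannot be told apart. No annotated gene overlapped an exon of the other 3 members.

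The start regions of the 4 genes are printed because the genes shared an equal allele share at day 0 and parted afterwards, so that a reader can compare the promoters of the gene that kept mus reads and of those that lost them. Each runs from 250 bases before to 50 bases after a RefSeq start on GRCm38.p6, 5′ to 3′ on the gene's strand, and where RefSeq lists several starts the window nearest the GENCODE start was taken. The RefSeq start lay 214 bases from the GENCODE start for Tbl1x, 65 for Zfx, 9 for Ogt and 0 for Hcfc1. Most of the Tbl1x window thus lies inside the annotated gene, and all of the Zfx window lies outside it. Capitals mark matches, on either strand, to AGGCCT (ZFX), CCATNTT (YY1), CCGGAAG (ETS and GABP), TGACGTCA (CREB) or ACTACAA (ZNF143 and THAP11). The letters are the C57BL/6J reference and hold no cas variants.
Ogt, chrX:101639801-101640100, plus strand: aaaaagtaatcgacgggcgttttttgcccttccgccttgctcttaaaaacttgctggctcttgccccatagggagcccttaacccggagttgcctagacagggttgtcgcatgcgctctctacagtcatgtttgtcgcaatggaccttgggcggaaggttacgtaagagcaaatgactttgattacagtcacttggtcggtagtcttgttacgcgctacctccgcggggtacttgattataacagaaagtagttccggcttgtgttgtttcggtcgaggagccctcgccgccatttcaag
Hcfc1, chrX:73966308-73966607, minus strand: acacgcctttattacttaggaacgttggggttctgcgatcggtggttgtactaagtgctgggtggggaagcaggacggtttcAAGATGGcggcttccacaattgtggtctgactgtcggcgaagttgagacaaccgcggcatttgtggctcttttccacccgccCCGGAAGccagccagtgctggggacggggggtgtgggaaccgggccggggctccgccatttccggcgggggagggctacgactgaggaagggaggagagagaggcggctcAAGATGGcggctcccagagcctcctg
Tbl1x, chrX:77510977-77511276, plus strand: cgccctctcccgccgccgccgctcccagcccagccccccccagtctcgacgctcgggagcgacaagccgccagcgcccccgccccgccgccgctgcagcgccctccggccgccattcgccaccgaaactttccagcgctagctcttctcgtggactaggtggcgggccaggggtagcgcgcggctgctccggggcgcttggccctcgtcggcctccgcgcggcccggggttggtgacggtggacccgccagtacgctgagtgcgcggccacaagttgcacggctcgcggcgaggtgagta
Zfx, chrX:94123718-94124017, minus strand: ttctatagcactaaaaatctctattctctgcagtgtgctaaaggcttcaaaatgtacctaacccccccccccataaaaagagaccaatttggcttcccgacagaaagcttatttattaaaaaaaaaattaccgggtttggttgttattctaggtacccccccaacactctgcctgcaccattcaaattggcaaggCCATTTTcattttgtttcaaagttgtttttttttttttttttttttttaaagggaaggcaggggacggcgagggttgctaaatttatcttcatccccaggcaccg

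The Hcfc1 window held 2 YY1 matches, at bases 83 to 89 and 275 to 281 of the window, and 1 ETS match at bases 165 to 171. The Zfx window held 1 YY1 match at bases 196 to 202, and the windows of Ogt and Tbl1x held no match to any of the 5 motifs. No printed window matched the ZFX, CREB or ZNF143 letters. Of 32851 start windows of the same length in the RefSeq table, 16.1% held the YY1 letters, 8.86% the ETS letters, 10.3% the ZFX letters, 3.24% the ZNF143 letters and 1.79% the CREB letters. The printed windows also differed in CpG dinucleotides, with 43 in Tbl1x, 21 in Hcfc1, 20 in Ogt and 5 in Zfx, against a median of 7 over all windows. The second RefSeq start of Zfx, chrX:94123358-94123657, had 39 and held a YY1 match at bases 97 to 103. That of Ogt, chrX:101639968-101640267, had 14 and held no match. Matches of this kind describe letters only.

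Across the series, allele-specific reads summed to between 69742 and 160218.5 per library, lowest at day 7, and the summed TPM of the 372 genes made up 2.17% to 3.12% of a library's total. Xist, the RNA that coats the inactive X, stood at 11.3 ± 0.573 TPM before differentiation, 103 ± 7.45 TPM on day 4 and 58.6 ± 1.06 TPM on day 7. Nr0b1, a stem cell nuclear receptor, had 324 ± 5.0, 67.6 ± 2.77 and 13.8 ± 0.157, and of 10 X-linked stem cell markers 9 were lower at day 4 than at day 0 and 8 lower and 2 higher at day 7, where limma called 40.6% and 54% of all genes lower. The 7 measured fibroblast markers, which feeder cells would carry, had a summed TPM of 883 to 909 on day 0, then 634 to 657, then 932 to 941. In this sum Flna had 367, 348 and 393 TPM on days 0, 4 and 7, and Msn 190, 161 and 197. Both stayed high in cells taken off feeders, so the sum does not measure feeders alone, whereas Bgn had 90.8, 1.89 and 27.7 TPM. By limma 3 of the 7 were lower and 2 higher at day 4 against day 0, beside 40.6% and 41.4% of all genes. The summed mus share of the 7 at day 0 was 56.9% to 57.1%, against 48.6% over all genes, and Bgn had the highest share, 99.9%. Their part in the values below was not tested. Autosomal markers were not analysed here. At day 7 the 2 libraries are no free replicates in TPM, because the log2 difference between them is an exact linear function of the day 0 and day 4 differences over all 372 genes, with a residual SD below 1e-09. Adjusted p-values for TPM may thus be too small.

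At day 0 all 4 genes were read about equally from both alleles. Ogt had 351 cas and 350.5 mus reads in replicate 1 and 394.5 and 401 in replicate 2, mus shares of 50% and 50.4%. Hcfc1, the most deeply covered, had 1182 and 1158 reads, then 1473.5 and 1425, shares of 49.5% and 49.2%. Tbl1x stood at 54.7% of 179 reads and 50% of 243 reads, and Zfx at 53.8% of 159 and 48.2% of 207.5. The values of Ogt lay just above those of Hcfc1 in both libraries, with Wilson intervals that overlapped, and those of Tbl1x and Zfx overlapped each other. The 95% Wilson intervals of a single library were widest for Zfx, from 46.3% to 61.6% in replicate 1. These intervals, on reads rounded to whole numbers, cover counting error only. By the quasi-likelihood test of edgeR, adjusted over all genes by the Benjamini-Hochberg method, 0 of 4 members departed from an equal share, with adjusted p between 0.641 for Hcfc1 and Tbl1x and 0.952 for Ogt. Of all 372 genes 29% were called. At an unadjusted p under 0.05, 0 of 4 members passed, and limma and DESeq2 also called 0.

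All 4 genes had lost mus share by day 4, Ogt least. Ogt kept 37.0% of 1889 reads and 36.8% of 1862.5, a mean of 36.9% ± 0.178. Hcfc1 went to 22.3% of 2404 and 23.6% of 2596 reads, Tbl1x to 16.6% of 298 and 20.0% of 293, and Zfx to 20.5% of 266.5 and 18.2% of 249.5. Both Ogt libraries thus lay above every library of the other 3, while those of Tbl1x and Zfx overlapped. As a log2 change in the ratio of mus to cas reads (the odds) against day 0, Ogt fell by 0.79 ± 0.10 (SE, edgeR quasi-likelihood adjusted p = 1.21e-13). The changes were -1.71 ± 0.08 for Hcfc1, -2.09 ± 0.23 for Zfx and -2.27 ± 0.22 for Tbl1x, with adjusted p of at most 6.05e-18. The fall at 4 of 4 members is near the background, since 87.9% of all genes were called lower, with a median change of -1.81. The Zfx call missed the threshold in limma on the empirical logit, with adjusted p = 0.0571.

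From day 4 to day 7 Ogt held its share while the other 3 lost more of their mus reads. Ogt gave 271 mus of 734 reads in replicate 1 and 223.5 of 634.5 in replicate 2, shares of 36.9% and 35.2% with 95% Wilson intervals of 33.5% to 40.5% and 31.7% to 39.1%. The first lies between the 2 day 4 values, and the change of odds was -0.05 on the log2 scale (95% interval -0.26 to 0.17, edgeR quasi-likelihood adjusted p = 0.724). Without day 7 replicate 2 it was 0.0032. Hcfc1 fell to 11% of 1469.5 and 9.91% of 1317 reads, and Tbl1x, with 15 and 12 mus reads, to 6.29% and 5.85%. Zfx had 4 mus reads of 151 in replicate 1 and none of 129 in replicate 2, where the 95% Wilson interval reached up to 2.89%. The 4 genes did not overlap in any day 7 library, in the order Ogt, Hcfc1, Tbl1x, Zfx, although the Wilson intervals of Tbl1x (3.86% to 10.1% and 3.38% to 9.95%) overlapped those of Hcfc1 (9.52% to 12.7% and 8.37% to 11.6%) and, in part, of Zfx (1.03% to 6.61% in replicate 1).

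Between day 4 and day 7 the log2 odds changed by -1.35 ± 0.10 (SE) at Hcfc1, -1.79 ± 0.32 at Tbl1x and -4.00 ± 0.52 at Zfx, with edgeR quasi-likelihood adjusted p of at most 7.39e-08. So 3 of 4 members were called lower, with 68.3% of all genes. Against day 0 the odds at day 7 had fallen at 4 of 4, beside 89.8% of all genes, with changes of -0.83 ± 0.12 at Ogt, -3.06 ± 0.09 at Hcfc1, -4.06 ± 0.28 at Tbl1x and -6.09 ± 0.43 at Zfx, around a median of -4.22 over all genes. The Zfx value rests on few mus reads: it was -5.21 without day 7 replicate 2 and -10.89 without replicate 1, which leaves the library with no mus read. In percentage points Ogt lost 13.3 by day 4 and 14.1 by day 7, so that 94.3% of its fall was made by day 4. That part was 73.6% for Tbl1x, 67.9% for Hcfc1 and 63.7% for Zfx, beside a median of 67.3% over the 348 genes whose share fell by at least 10 points. A share in bulk RNA cannot tell apart a low output of the mus allele in every cell from full output in few cells.

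**Figure D1:**
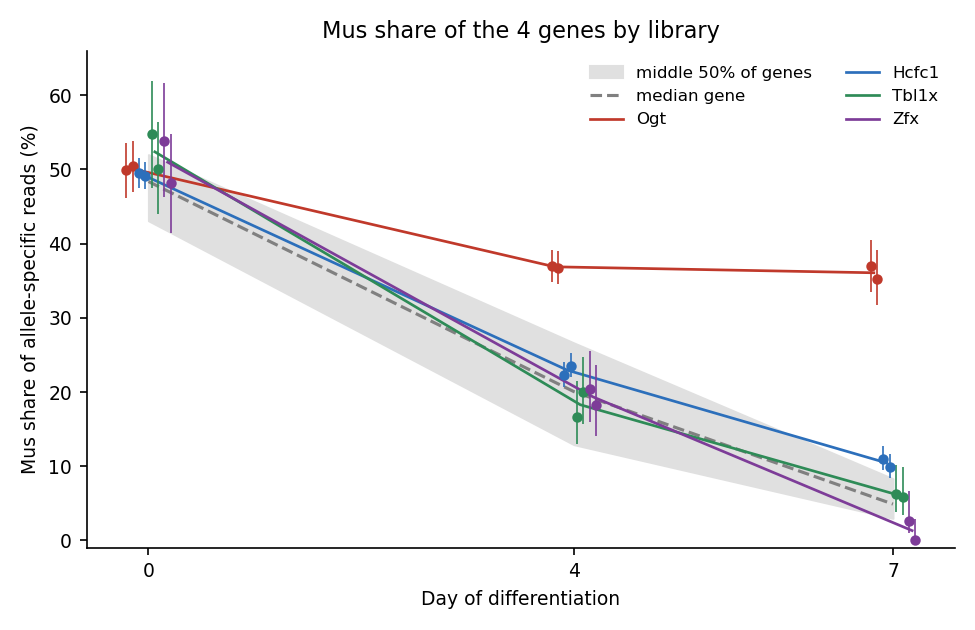
Mus share in percent (vertical axis) by day of differentiation (horizontal axis) for Ogt, Hcfc1, Tbl1x and Zfx. Points are the 6 libraries with 95% Wilson intervals, coloured lines join the day means, and the dashed line and grey band give the median and middle 50% of genes with at least 50 allele-specific reads on that day. Ogt stays at 36.9% and 36.1% at days 4 and 7, above the band, while Zfx reaches 1.32%.

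The members' changes were compared in 18 pairs, 6 per comparison of days, from the same fit. In 15 of them the unadjusted 95% interval of the difference left out 0. Ogt differed from each of the others in all 3 comparisons, and at day 7 against day 0 its log2 odds change lay 2.22 above that of Hcfc1 (95% interval 1.92 to 2.52), 3.23 above that of Tbl1x (2.63 to 3.82) and 5.26 above that of Zfx (4.37 to 6.14). Intervals with Zfx at day 7 may be too narrow, since its change was -5.21 without day 7 replicate 2 and -10.89 without replicate 1. The intervals that held 0 were Hcfc1 less Zfx at day 4 against day 0 (-0.11 to 0.86), Tbl1x less Zfx there (-0.81 to 0.44), and Hcfc1 less Tbl1x at day 7 against day 4 (-0.21 to 1.09).

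**Figure D2:**
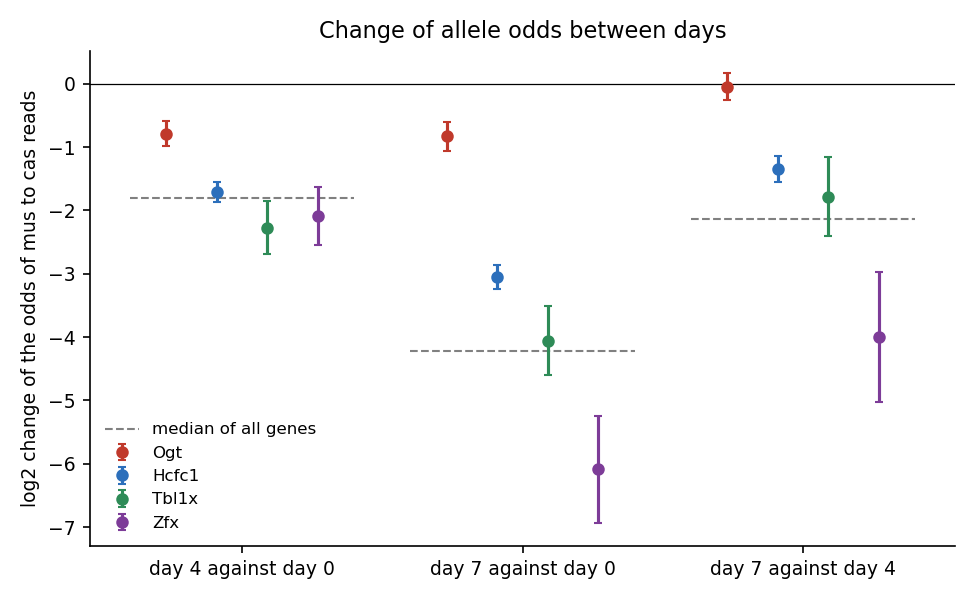
Change in log2 odds, mus over cas reads (vertical axis) for the 4 genes in each comparison of days, with 95% intervals from the fit over all genes. Dashed lines give the median of all genes: Ogt lies above it in every comparison, at -0.79, -0.83 and -0.05, and Zfx lies below it at day 7.

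Because nearly all X-linked genes lost mus reads, each change was also tested relative to the median gene of its library. The log2 odds of that median moved by -1.88 at day 4 and -3.92 at day 7. Over all genes the median change on this scale was 0.05 at day 4, -0.38 at day 7 and -0.24 at day 7 against day 4. At day 7 the typical gene thus lay below this reference. On this scale Ogt was higher at day 4 by 1.10 ± 0.10 (SE, edgeR quasi-likelihood adjusted p = 2.12e-25) and at day 7 by 3.09 ± 0.12 (4.43e-116). Hcfc1 was also higher, by 0.17 ± 0.07 at day 4 (0.0372, but 0.0648 with TMM scaling between alleles) and by 0.87 ± 0.10 at day 7 (1.08e-15). Of all genes 21.8% were higher at day 4 and 16.9% at day 7. Zfx was lower at day 7, at -2.21 ± 0.63 (0.00306), as were 11% of genes, and Tbl1x differed from the median gene at neither day, with -0.39 (95% interval -0.83 to 0.05) and -0.14 (-0.80 to 0.53). Between day 4 and day 7, Ogt with 2.0 ± 0.11 and Hcfc1 with 0.70 ± 0.10 were again among the 11.6% of genes called higher, and Zfx with -2.0 ± 0.65 among the 5.38% called lower.

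Among the 223 genes with at least 50 allele-specific reads at day 7, the mus share of Ogt, 36.1% ± 1.20, was at rank 3 from the highest, after Xist (99.8% ± 0.120) and the ribosomal protein gene Rps4x (39.0% ± 0.0951). Hcfc1 was at rank 40 with 10.4% ± 0.765, Tbl1x at 86 with 6.07% ± 0.308 and Zfx at 209 with 1.32% ± 1.87, and the median gene had 4.90%. At day 4 the ranks were 26, 127, 188 and 178 of 331 genes. The genes whose 6 library shares lay nearest to those of Ogt, among 304 genes, were Rps4x at a Euclidean distance of 8.04 percentage points, the RNA helicase gene Ddx3x at 10.2 and Utp14a, a ribosome assembly gene, at 14.0. Rps4x stood at 37.4% at day 4 and 39.0% at day 7, while Ddx3x went from 36.5% to 29.5% and Utp14a from 41.0% to 29.1%. Nearest to Hcfc1 were Ercc6l (3.45), Ftsj1 (4.16) and Emd (4.26). Pdzd11 (3.96), Xiap (5.13) and Bex2 (5.23) were nearest to Tbl1x, and Fam3a (5.3), Bex2 (5.8) and the mediator gene Med12 (6.31) to Zfx. So 3 of the 4 members had closer company in allele share than Ogt.

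**Figure D3:**
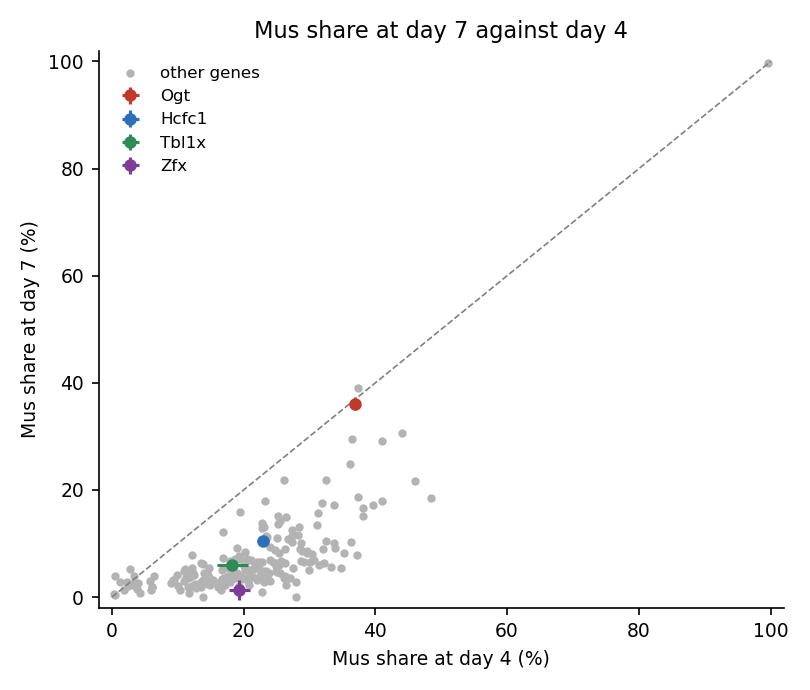
Mean mus share at day 7 (vertical axis) against day 4 (horizontal axis), in percent, for 209 genes with at least 50 allele-specific reads on both days. Coloured points are the 4 genes with SD bars over 2 libraries, the dashed line marks equal shares, and Ogt lies near that line at 36.9% and 36.1% while Hcfc1, Tbl1x and Zfx lie well below it. The point at the upper right is Xist.

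By unadjusted 95% intervals, each member differed from its nearest measured genes in at least 1 comparison of days, except that Ogt could not be told from 8030474K03Rik. The intervals of Tbl1x that left out 0 came close to it and may be too narrow. The SE of the Tbl1x change at day 7 against day 0 was 0.28 in this fit, but 0.34 in the fit relative to the median gene. Other adjacent genes were not compared, so how common such differences are on the X is not known. Taf1, a subunit of the general factor TFIID, lies 38.3 kb from Ogt and had a mus share of 40.8% ± 1.24 at day 0, 38.5% ± 2.66 at day 4 and 9.60% ± 6.27 of 28.75 reads at day 7. By day 4 Taf1 had not passed the test (-0.13, edgeR quasi-likelihood adjusted p = 0.613), and the log2 odds change of Ogt less that of Taf1 was -0.66 (95% interval -1.16 to -0.15). From day 4 to day 7 the order was the reverse, with Ogt 2.37 above Taf1 (1.22 to 3.51). On the other side, 110 kb away, 8030474K03Rik had a mean of 4 reads at day 7, too few for a share. Hcfc1 lay between Renbp, 11.9 kb away, with 8.32% ± 2.77 at day 7, and Irak1, 47.6 kb away, with 3.8% ± 0.153. Its change from day 0 to day 7 lay 1.56 above that of Irak1 (1.05 to 2.06), and the interval against Renbp held 0 (-0.15 to 1.27). Against Renbp the 2 steps differed in direction, with Hcfc1 less Renbp at -0.62 (-1.13 to -0.12) by day 4 and 1.18 (0.51 to 1.86) from day 4 to day 7. Zfx lay 65.0 kb from Eif2s3x, a known mouse escape gene, which had 8.92% ± 0.823 at day 7, and the change of Zfx less that of Eif2s3x was -3.39 (-4.45 to -2.34). With so few Zfx mus reads at day 7, this interval may be too narrow. AU015836, 99.2 kb to the other side of Zfx, had no mus read in either day 7 library. Tbl1x was flanked by Pls3 and Prkx, with 2.70% ± 1.68 and 4.50% ± 0.538 at day 7, and its change from day 0 lay 0.86 above that of Pls3 (0.04 to 1.68), while the interval against Prkx held 0 (-0.45 to 1.11). Tbl1x less Prkx was -0.65 (-1.21 to -0.09) by day 4 and 0.98 (0.06 to 1.90) from day 4 to day 7.

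Total expression of the 4 genes moved in different ways. Ogt had a TPM of 123 and 108 at day 0, 199 and 197 at day 4, and 106 and 106 at day 7, so the day 4 libraries stood above all others. It rose by 0.78 ± 0.07 (SE) in log2(TPM + 1) from day 0 to day 4, or 1.72-fold in the means, with adjusted p = 2.55e-05 in limma. It fell by 0.90 ± 0.07 to day 7 (7.27e-06). The day 7 level did not pass against day 0, at -0.12 (95% interval -0.27 to 0.04, adjusted p = 0.137), but was called lower without day 0 replicate 2 (-0.21, 0.000932) and higher relative to the median gene of each library (0.20, 0.0286). The library medians of log2(TPM + 1) themselves moved by 0.20 from day 0 to day 4, by -0.31 from day 0 to day 7 and by -0.51 from day 4 to day 7.

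Hcfc1 was the most abundant of the 4 on every day and was lower after day 0. Its TPM was 347 and 381 at day 0, 234 and 253 at day 4, and 234 and 230 at day 7, with no overlap between day 0 and the later days. It fell by 0.58 ± 0.06 in log2(TPM + 1) by day 4 (adjusted p = 9.96e-05, limma) and by 0.65 ± 0.06 by day 7 (3.30e-05). From day 4 to day 7 the change was -0.07 (95% interval -0.22 to 0.08), or 0.44 relative to the median gene, where it was called higher (0.00114).

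Tbl1x rose with every step and Zfx was lower at day 7. Tbl1x had a TPM of 130 and 132, then 167 and 171, then 195 and 194, and no days overlapped. It rose by 0.36 ± 0.05 by day 4 and 0.56 ± 0.05 by day 7 in log2(TPM + 1), with adjusted p of 0.000217 and 1.18e-05 in limma. The step of 0.20 ± 0.05 from day 4 to day 7 passed with 0.00441, a call lost when the day 7 pair counted as 1 library (0.0909), without day 7 replicate 1 (0.101) or without replicate 2 (0.0812). Zfx had a TPM of 64.5 and 61.0 at day 0, 56.2 and 58.5 at day 4 and 28.9 and 28.5 at day 7. It fell by 1.10 ± 0.06 from day 0 to day 7 (8.59e-07) and by 0.97 ± 0.06 from day 4 (2.10e-06). The day 4 value, -0.13 (95% interval -0.26 to 0.01, adjusted p = 0.0766), was called lower without day 0 replicate 2 (0.0165) and relative to the median gene (-0.33, 0.00178). Among all genes limma called 41.4% higher and 40.6% lower at day 4 against day 0, 30.9% and 54% at day 7 against day 0, and 25.5% and 60.5% at day 7 against day 4, so calls in either direction were common.

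The TPM of each library was divided by its allele shares, which takes the allele-specific reads to stand for all reads of a gene. The cas-assigned part of Tbl1x was 59.0 and 66.1 at day 0, 139 and 137 at day 4, and 183 and 182 at day 7, a 2.92-fold rise in the means, while its mus-assigned part went from 71.4 and 66.1 to 12.3 and 11.3. The rise of the cas part was larger than the loss of the mus part, so the total was higher. In log2(value + 1) the cas part rose by 1.53 ± 0.07 by day 7 (adjusted p = 1.50e-05, limma) and the mus part fell by 2.44 ± 0.15 (2.37e-05). Hcfc1 had a nearly level cas part, 176 and 194 at day 0, 182 and 193 at day 4, and 208 and 207 at day 7. Its mus part went from 172 and 187 to 52.3 and 59.6 and then to 25.7 and 22.8, a change of -2.84 ± 0.12 in log2(value + 1) by day 7 (adjusted p = 9.77e-06, limma). The cas part of Hcfc1 did not pass at day 4 (0.03, 95% interval -0.14 to 0.19) or, narrowly, at day 7 against day 0 (0.17, adjusted p = 0.0510, but 0.00954 without day 0 replicate 2) and against day 4 (0.15, 0.0865, but 0.0260 without either day 0 library).

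Ogt differed from the others in that its mus-assigned part was not lower at day 4. That part was 61.2 and 54.5 at day 0, 73.8 and 72.5 at day 4, and 39.2 and 37.4 at day 7, and the day 4 pair lay above all others. It rose by 0.34 ± 0.11 by day 4 (adjusted p = 0.0320, limma), as at 2.69% of all genes, against 71.5% that fell. The call was lost without the trend method (0.0729), without day 0 replicate 2 (0.0870), without day 4 replicate 1 (0.115) and without day 4 replicate 2 (0.0983). From day 4 to day 7 the Ogt mus part fell by 0.92 ± 0.11 (0.000499) and the cas part by 0.87 ± 0.08 (0.000224), changes of like size on both alleles. The cas part had risen from 61.3 and 53.6 to 126 and 125, by 1.11 ± 0.08 (0.000104), and stood at 67.0 and 68.7 at day 7. Its day 7 level was higher than at day 0 by 0.24 ± 0.08 (0.0286), a call lost without any 1 library of day 4 or day 7 (0.0628 to 0.125) and with the day 7 pair counted as 1 library (0.103), and it was -0.25 relative to the median gene, called lower (0.0258).

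The cas part of Zfx rose at day 4 and fell from day 4 to day 7. It was 29.8 and 31.6, then 44.7 and 47.9, then 28.1 and 28.5, a rise of 0.58 ± 0.07 by day 4 (adjusted p = 0.000749, limma) and a change of -0.69 ± 0.07 from day 4 to day 7 (0.000369). The day 7 value against day 0 was -0.11 and did not pass (0.170). Relative to the median gene the day 4 value was -0.17 and did not pass (0.0870), and the day 7 value was -0.60 and was called lower (0.000648). Its mus part went from 34.7 and 29.4 to 11.5 and 10.7 and to 0.765 in day 7 replicate 1, and was listed at 0 in replicate 2. The call at day 4, -1.45 ± 0.30 for the mus part (0.00762), was lost with a pseudocount of 0.1 (0.256) and without day 0 replicate 1 (0.0660) or either day 4 library (0.0508 and 0.0608).

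In all, the cas part was called higher at 3 of 4 members at day 4 against day 0, all except Hcfc1, beside 65.6% of genes, and at 2 of 4 at day 7 against day 0, beside 56.5%. From day 4 to day 7 it was called lower at Ogt and Zfx, beside 47.6% of genes, and higher at Tbl1x (0.40 ± 0.07, adjusted p = 0.00282, limma), beside 32.8%. The mus part was called lower at 4 of 4 at day 7, beside 92.5% of genes against day 0 and 80.6% against day 4. Relative to the median gene, whose mus part moved by -3.03 and -1.95, the changes of Ogt, Hcfc1 and Tbl1x were above 0. That of Hcfc1 against day 0 was not called (0.19, adjusted p = 0.294, limma). The library medians of the cas part moved by 0.75 at day 4 and 0.49 at day 7 against day 0, so the nearly level cas part of Hcfc1 was called lower relative to the median gene, with -0.72 at day 4 (0.000349) and -0.32 at day 7 (0.00675).

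**Figure D4:**
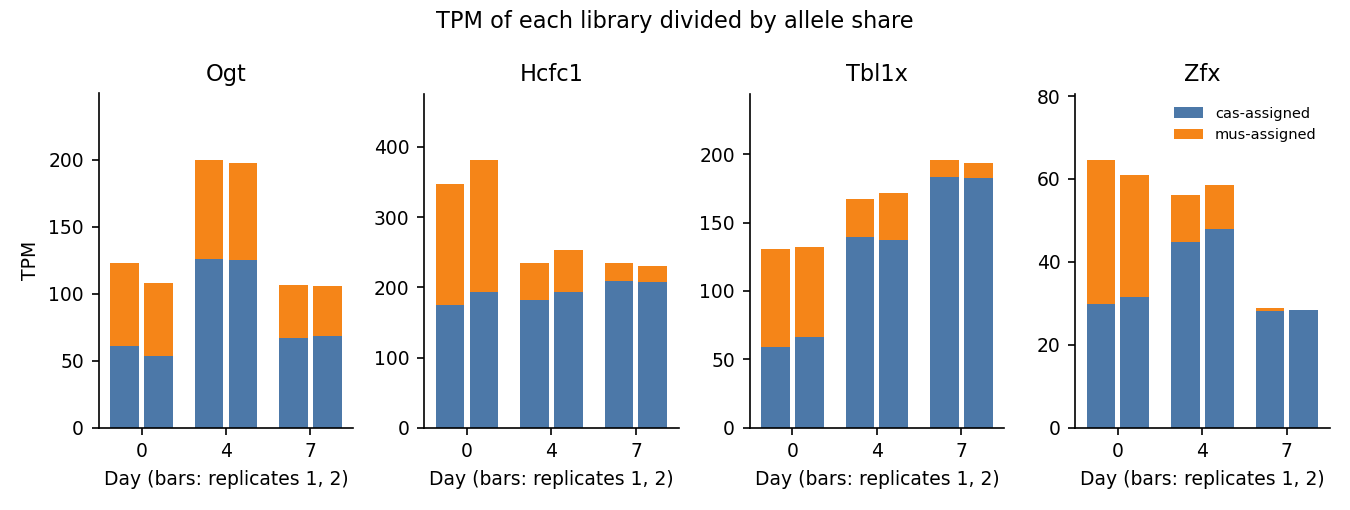
TPM (vertical axis) of Ogt, Hcfc1, Tbl1x and Zfx in each of the 6 libraries, 2 bars per day, divided into the cas-assigned and the mus-assigned part by the library's allele share. The mus part of Ogt is tallest at day 4, at 73.8 and 72.5, and the cas part of Tbl1x grows to 183 and 182 at day 7, while the mus part of Zfx is 0.765 and 0. Vertical scales differ between genes.

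By expression pattern, measured as the Euclidean distance of log2(TPM + 1) centred on each gene's mean over the 6 libraries, the genes nearest to Ogt were Prrg3 (0.18), the polyamine enzyme gene Sat1 (0.27) and 4933407K13Rik (0.27). These 3 genes had the day 4 maximum in common with Ogt but not its allele share, with day 7 mus shares of 3.94% for Prrg3, 6.70% for Sat1 and 1.22% for 4933407K13Rik, each on a mean of fewer than 50 reads. Nearest to Hcfc1 were the zinc finger gene Klf8 (0.08), the transcription factor gene Tfe3 (0.18) and the histone demethylase gene Kdm5c (0.19). Phka2 (0.16), 2610002M06Rik (0.27) and Taz (0.27) were nearest to Tbl1x. Dkc1 (0.11), the histone demethylase gene Kdm6a (0.12) and Plp2 (0.16) were nearest to Zfx, and Kdm6a had a mus share of 37.4% ± 10.7 at day 7, on a mean of 36.75 reads, against 1.32% ± 1.87 for Zfx.

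Beyond the 4 genes, 43 of 52 listed symbols of X-linked regulators of transcription and chromatin were measured. At day 4 their mus share was lower at 39 and higher at 1 against day 0, and at day 7 lower at 40 and higher at 0. Their median log2 odds change was -1.90 at day 4 and -4.15 at day 7, against -1.81 and -4.22 over all genes. Against the median gene of the library, 13 of the 43 lay higher and 12 lower on day 4, beside 81 and 68 of all 372 genes, and 8 and 5 on day 7, beside 63 and 41. Of the 30 with at least 50 reads at day 7, the highest mus shares were those of Kdm5c (24.8% ± 2.21), the histone methyltransferase gene Suv39h1 (21.8% ± 3.37) and the splicing and transcription protein gene Nono (21.7% ± 4.00), each below the 36.1% of Ogt. Among listed genes with fewer reads, Nr0b1 had 40.2% and Kdm6a 37.4% ± 10.7, both above Ogt. Kdm6a had 42.5% ± 1.23 at day 4. The lowest were those of Elf4, with no mus read among a mean of 54.5, Zfp280c (1.88% ± 0.0941) and Cited1 (1.90% ± 0.203), near the 1.32% of Zfx.

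By role, the 5 measured corepressor and deacetylase genes, the class closest to Tbl1x, were all lower in mus share at both days, with a median of 14.5% at day 4 and 3.52% at day 7, where 87.9% and 89.8% of all genes were lower too, so these counts and the next are near the background. The 8 zinc finger factor genes, the class of Zfx, were lower at 8 of 8 at day 4 and 6 of 8 at day 7, with medians of 15.5% and 2.04%. Of the 3 mediator and TFIID genes, 2 were lower at day 4 and 3 at day 7, and Taf1 was the exception at day 4. The Zfx relative Zfp711 was not analysed here. In TPM, 23 of the 43 regulators were lower and 15 higher at day 4 against day 0, and 26 lower and 11 higher at day 7. Their median log2 change was -0.21 at day 4 and -0.52 at day 7, against 0.01 and -0.37 over all genes. Among the largest called falls against day 0 were those of Nr0b1, Elf4 and Zmym3 at day 4 and of Nr0b1 and Zfp182 at day 7. The largest rises were those of Tsc22d3, Suv39h1 and Zbtb33 at day 4 and of Cited1, Suv39h1 and Tsc22d3 at day 7. From day 4 to day 7 Zfp182 and Zfp300 were among the genes with the largest called falls, and Cited1, Elf4 and Suv39h1 rose most. Suv39h1, for example, went from a TPM of 35.9 ± 2.30 to 126 ± 4.85 and 260 ± 3.19, a larger rise than that of Tbl1x.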

How the data were processed

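Per the labels' protocols, total RNA was depleted of ribosomal RNA, and directional libraries were made. Per the submitters' processing notes, the tools were STAR, HOMER 4.10, limma, edgeR and Trim Galore 0.4.1, and mm10 and GRCm38 are the builds named. Their roles, the strand setting and how the 372 genes were selected are not given here. The authors deposited allele-specific reads as estimated counts in steps of 0.5 (41.4% not whole), the fraction of each allele, which equalled the shares of the counts, and TPM.

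Rounded counts of cas and mus reads from the 6 libraries were fitted with the quasi-likelihood method of edgeR 4.0.16 (R 4.3.3) over the 372 genes, with library terms and an allele term per day. The filters, a mean of 10 reads per library or a mean TPM of 1, removed no gene. With 3 residual degrees of freedom and a common dispersion of 0.00101, the prior degrees of freedom were estimated as infinite, and each gene was judged by a spread shared over genes. Log2(TPM + 1), and log2(value + 1) of the TPM times an allele's share, went into limma 3.58.1 with its trend option, a scale that understates changes of low values. Adjusted p-values are Benjamini-Hochberg over all genes, called under 0.05. DESeq2 1.42.0 and limma on the empirical logit were alternatives for allele share. Both fits were tested on simulated data, in which TPM noise was independent between libraries. That test therefore does not cover the tied day 7 pair of TPM.

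Between replicates, chi-square per degree of freedom of reads was 3.90, 1.78 and 2.55 on days 0, 4 and 7, so each library counted as 1 sample. For mus share it was 1.08, 1.24 and 1.15, so the replicates differed in share by little more than counting error. Members and lists were chosen with earlier results of these data known. Named genes were the 4 members, their 3 nearest genes by mus share (with at least 50 reads) and by TPM, flanking genes, and the extremes of the regulator list, of which 1 gene is not reported here. All 372 symbols matched GENCODE M21 on chromosome X. Sequences are from RefSeq (GRCm38.p6), which held start windows for 4 of 4 members.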

Additional observations from a re-analysis of the deposited data

How the results depend on the processing

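The replicate numbers are shared between days, but no label says that a number marks a common culture. Same-numbered deviations of the log2 odds of mus correlated at -0.10, 0.06 and -0.13 over the 372 genes. Chi-square per degree of freedom of mus share between replicates was 1.08, 1.24 and 1.15 on days 0, 4 and 7, little above counting error. Such correlations would be near 0 with or without a common culture, so they cannot tell whether same-numbered libraries are paired. In log2 TPM the correlations were -0.04 (days 0 and 4), 0.17 (days 0 and 7) and -0.99 (days 4 and 7), so same-numbered libraries of days 4 and 7 are tied in TPM. With the replicate block, 4 members had a lower mus share at day 4 and at day 7 than at day 0, 3 a lower one at day 7 than at day 4, and no count of called members moved.

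Scaling between alleles changed the question. Centred on the median gene, 0 members were called lower at day 4 and 1, Zfx, at day 7 against either day, with the same counts under TMM. Centred and TMM values of the log2 odds change turned positive, as follows by construction where the median gene moves more: Ogt 1.10 and 1.08 at day 4, 3.09 and 2.81 at day 7, 2.0 and 1.72 at day 7 against day 4, and Hcfc1 0.17 and 0.16, 0.87 and 0.58, 0.70 and 0.42. Tbl1x turned to 0.25 centred at day 7 against day 4. At day 0 uncalled values changed sign, Hcfc1 to 0.065 centred and 0.078 with TMM; without 1 library Ogt ranged from -0.0041 to 0.025 and Zfx from -0.11 to 0.22, and at day 7 against day 4 Ogt to 0.0032 without day 7 replicate 2. Called members without 1 library stayed at 0 at day 0, 4 at days 4 and 7 against day 0, and 3 at day 7 against day 4.

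Centring TPM on the median gene reversed Ogt at day 7 against day 0 (0.20) and Hcfc1 at day 7 against day 4 (0.44). For the cas part it reversed Hcfc1 at day 4 (-0.72) and day 7 (-0.32) against day 0, Zfx at day 4 (-0.17) and Ogt at day 7 (-0.25), and called 4 members in place of 2 at day 7. Hcfc1 at day 4 ranged from -0.044 (without day 0 replicate 1) to 0.096 without 1 library, and was -0.018 without day 4 replicate 2. For the mus part, centring gave Ogt 2.45, Hcfc1 0.19 (not called) and Tbl1x 0.59 at day 7 against day 0. At day 7 against day 4 it gave Ogt 1.03, Hcfc1 0.78 and Tbl1x 0.64. It called 2 members in place of 4 at day 4. With the day 7 pair as 1 library, 1 member in place of 2 was called for the cas part at day 7 against day 0. Leaving out 1 library gave 1 to 3 there and 2 to 4 for the mus part at day 4. Other counts of called members stayed within 1.5 times.

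Over all genes the call at day 0 depended on the test, with 72 lower and 36 higher in edgeR's quasi-likelihood test, 11 and 11 in limma and 24 and 16 in DESeq2. Depth limits the mus share of Zfx most, at 129 to 151 reads per day 7 library.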
